A study of Mus musculus with 9 samples.

Results

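Vip interneurons were 686 of the 74895 nuclei kept from cortex and hippocampus of 9 mice, or 15.9% of the 4328 GABAergic nuclei that had at least 2 UMIs of Adarb2 and passed the same limits on Sst, Pvalb and Lamp5. A UMI is a unique molecular identifier, counted once per captured RNA molecule. Nuclei were kept with 200 to 5000 detected genes and at most 10% of UMIs from mitochondrial genes. A kept nucleus was a member when Gad1 and Gad2, the enzymes that make GABA, together had at least 2 UMIs and more than the glutamate transporters Slc17a7 and Slc17a6, and when it had at least 1 UMI of Vip, at least 2 of Adarb2, at most 1 of Sst, none of Pvalb and at most 1 of Lamp5. The members were therefore chosen by measured counts, and the levels of these genes are given below as a description without a test.

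All mice were male C57BL/6 animals of wild-type genotype, in 3 groups of 3, with 1 library per mouse. Young and aged mice received AAV-EGFP, which carries a green fluorescent protein as the control, and a second set of aged mice received AAV-B3GNT3, which carries the glycosyltransferase B3GNT3 that extends core 1 O-glycans. The virus was given retro-orbitally 8 weeks before tissue was taken, and its CLDN5 promoter directs the transgene to brain endothelial cells, so the neurons were not its target. Cortex and hippocampus of each mouse were pooled, and singlet nuclei were sorted on a DNA stain, so a level cannot be assigned to either region, and the RNA is that of nuclei. The transcript B3gnt3 had no UMI in any member nucleus in any group. All kept nuclei together held 15, 8 and 5 UMIs of it in young and 5, 5 and 13 in aged AAV-EGFP libraries. Aged AAV-B3GNT3 libraries held 8, 9 and 11, within the range of the controls. Since the transgene did not stand out in any library, its lack in members does not show whether they carried it.

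VIP interneurons are GABAergic cells of cortex and hippocampus that arise in the caudal ganglionic eminence. They release GABA and the vasoactive intestinal peptide that names them, and many of them contact other inhibitory neurons, above all somatostatin cells, so that their activity can release pyramidal cells from inhibition. Acetylcholine, serotonin and noradrenaline are known to excite them, and their subtypes are told apart by calretinin (Calb2), cholecystokinin (Cck), corticotropin-releasing hormone (Crh), enkephalin (Penk), tachykinin 2 (Tac2) and choline acetyltransferase (Chat).

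The 9 libraries held 77823 barcodes, of which 2923 exceeded the upper limit on genes and 5 the mitochondrial limit. Of 77081 distinct barcode sequences 734 occurred in more than 1 library, none of them in 2 member nuclei, and 16 member barcodes were also kept in another library. Members numbered 35 to 119 per mouse, with a median of 5891 to 9893 UMIs per nucleus and summed counts of 343969 to 961346 UMIs. A doublet caller at a preset rate marked 80 members, and 49 further nuclei met the count criteria but exceeded the limit on genes; both sets are treated as alternatives. Levels are given as CPM, the UMIs of a gene per 1000000 UMIs in the summed counts of a class in a mouse. For a summed level, fewer nuclei with a transcript and less of it per nucleus cannot be told apart.

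The gate used Vip and Adarb2, so that Dlx6os1, an RNA of the Dlx5 and Dlx6 locus in GABAergic neurons, was the one label marker left to check. It was present in 596 of 686 members (86.9%), against 2.34% of 9044 excitatory and 1.96% of 15646 oligodendrocyte nuclei. Its level was 407 to 715, median 606 CPM across the 9 mice, and its mean was 577 CPM in Vip, 345 in Lamp5, 126 in Sst and 124 in Pvalb sums. Since the gate selects GABAergic nuclei, Dlx6os1 bears on that class and is no separate check of the Vip label. Vip itself had a UMI in 2.50% of excitatory and 2.38% of oligodendrocyte nuclei, classes that should lack it, and 183 members (26.7%) had exactly 1 UMI of Vip. Those 183 nuclei were 4.23% of all GABAergic nuclei that met the other criteria. Adarb2 had a UMI in 34.7% of excitatory and 25.8% of oligodendrocyte nuclei, so a UMI of it alone does not mark a Vip nucleus. Its mean level was 15928.5 CPM in Vip, 140.8 in excitatory and 208.6 in oligodendrocyte sums. Median UMIs per nucleus across the mice were 5891 to 9893 in members, 10149 to 14024 in excitatory nuclei, 1801 to 2681 in oligodendrocyte nuclei and 3233 to 5582 in kept nuclei of all types.

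The nuclei with 1 UMI of Vip also differed from the rest in other genes. At 1, 2 and at least 3 UMIs of Vip the level of Adarb2 was 9709, 15980.4 and 18118.5 CPM, that of Prox1, a transcription factor of caudal ganglionic eminence cells, 170.1, 253.8 and 295.7 CPM, and that of Meis2, a homeobox gene of striatal and some other GABAergic neurons, 557.7, 87.6 and 91.6 CPM. GABAergic nuclei just outside the gate, with Adarb2 and no Vip, had Meis2 at 1090.3 and Prox1 at 63.0 CPM (3642 nuclei). At the lower edge of Adarb2, 17 nuclei with Vip and 1 UMI of Adarb2 and 18 members with 2 to 4 UMIs had Meis2 at 1343 and 1402 CPM. Nuclei with 1 UMI of Vip thus lay between the other members and the nuclei outside the gate in these 3 genes, and the calls between conditions that were lost when at least 2 UMIs of Vip were required are given below.

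Markers of other cells were low but present. The summed level of 5 oligodendrocyte genes (Mbp, Mobp, Mog, Mag, St18) was 153.4 to 461.3 CPM in members, and that of 6 excitatory genes 353.5 to 580.7 CPM against 1512 CPM in excitatory nuclei. Endothelial genes summed to 0 to 9.19 CPM, and Pvalb (by the gate) and Folr1 of the choroid plexus were at 0. The 6 genes of striatal projection neurons (Drd1, Drd2, Ppp1r1b, Rgs9, Adora2a, Bcl11b) summed to 151.2 to 256.1 CPM in young, 82.9 to 245.5 in the aged AAV-EGFP group and 89.7 to 104.7 in aged AAV-B3GNT3 members. No marker gene of these lists that could be tested passed between conditions.

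**Figure D1:**
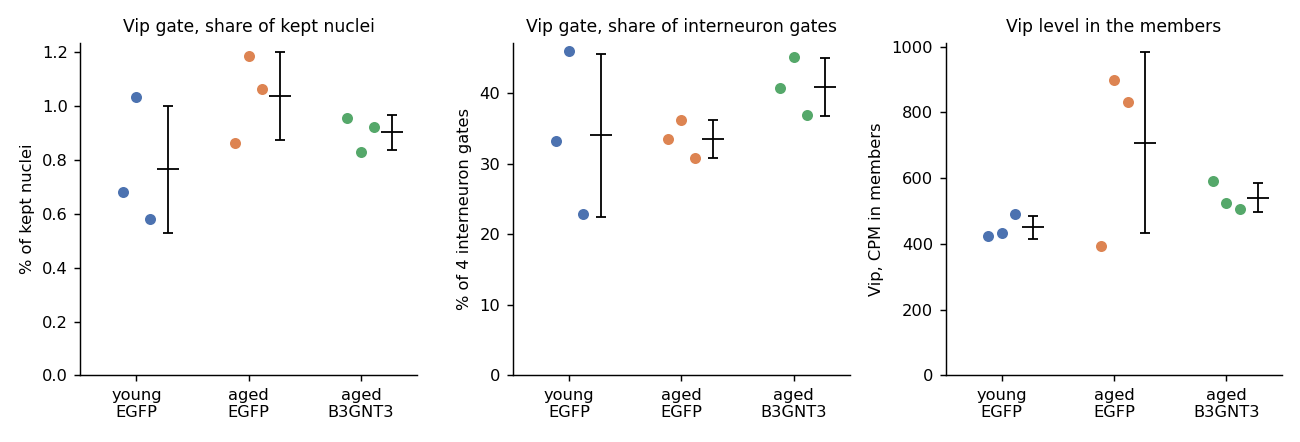
Share of Vip nuclei among kept nuclei (left, %) and among the 4 interneuron gates (middle, %), and the level of Vip in members (right, CPM), for each mouse of the 3 groups; each dot is a mouse, and the bar beside it is the mean ± SD (n = 3). Young mice span the widest range of shares, and 2 aged AAV-EGFP mice have the highest Vip levels, 899.8 and 830.4 CPM.

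The share of Vip nuclei varied among mice of a group, most in young and least in aged AAV-B3GNT3 mice. They were 0.680%, 1.03% and 0.583% of kept nuclei in young mice (mean 0.765% ± 0.237, SD, n = 3), 0.863%, 1.19% and 1.06% in aged AAV-EGFP mice (1.04% ± 0.164) and 0.956%, 0.829% and 0.924% in aged AAV-B3GNT3 mice (0.903% ± 0.0664). The exact Clopper-Pearson 95% interval ran from 0.406% to 0.810% for the lowest share (35 of 6005 nuclei) and from 0.985% to 1.42% for the highest (119 of 10015), and such intervals cover counting error only. The 3 groups overlapped, and a two-sided exact permutation test over the mice gave p = 0.239 (0.454 adjusted for 2 shares). The result depended on young replicate 2: without it the exact permutation p was 0.0214, with shares of 0.680% and 0.583% in the other young mice. That p is the smallest of the runs that leave out 1 mouse. It was not adjusted for that choice and rests on the young mice that were left, so it shows no group difference.

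Within the 4 interneuron gates (Vip, Lamp5, Sst and Pvalb) Vip nuclei were 33.2%, 45.9% and 22.9% in young mice, 33.5%, 36.2% and 30.9% in aged AAV-EGFP mice and 40.7%, 45.1% and 36.8% in aged AAV-B3GNT3 mice. The exact permutation p was 0.454 (0.454 adjusted), and 0.0250 without young replicate 2, again the smallest of the runs that leave out 1 mouse and not adjusted for that choice. Every aged AAV-B3GNT3 share lay above every aged AAV-EGFP share, which gives the smallest pairwise exact p that 3 against 3 mice allow, 0.1. These groups overlapped with doublets removed (lowest AAV-B3GNT3 share 33.7%, highest AAV-EGFP share 36.4%, exact permutation p = 0.2), with at least 2 UMIs of Vip (29.4% and 32.0%, p = 0.2) and with no upper limit on genes (32.4% and 35.8%, p = 0.3). They stayed apart without nuclei that carry striatal markers (42.4% and 39.5%, exact permutation p = 0.1) and with every nucleus thinned (62.7% and 59.4%, p = 0.1). This share also depends on the other gates. Sst nuclei numbered 50, 99 and 80 in aged AAV-EGFP and 24, 19 and 42 in aged AAV-B3GNT3 mice. The mean Vip share of kept nuclei went the other way, at 1.04% and 0.903%, so the higher share of the 4 gates does not show a gain of Vip nuclei.

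The level of Vip, which the gate used, was 425.4, 434.3 and 491.3 CPM in young, 393.3, 899.8 and 830.4 CPM in the aged AAV-EGFP group and 589.8, 523.6 and 506.1 CPM in aged AAV-B3GNT3 mice. The share of members with 1 UMI of Vip moved with it: 32.2% of 199 young, 21.3% of 268 aged AAV-EGFP and 28.3% of 219 aged AAV-B3GNT3 members, and 16.8% to 37.3% across mice. Adarb2, which encodes an RNA-binding member of the adenosine deaminase family, lay between 13594 and 19153 CPM in the 9 mice.

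Vip nuclei were then compared with the other interneuron classes of the same mice, gated in the same way as Lamp5 (294 nuclei), Sst (374) and Pvalb (542). These gates held striatal markers too. In Vip, Lamp5, Sst and Pvalb sums mean Rgs9 was 60.5, 231.7, 83.4 and 60.0 CPM and mean Bcl11b 67.1, 407.8, 164.1 and 177.8. Mean Drd1 was 9.92, 25.9, 7.97 and 11.8 CPM and mean Ppp1r1b 8.65, 21.9, 1.68 and 5.42. Nuclei with such markers stayed in the sums, so the fold changes are those of the gates as drawn. Counts were summed per mouse and class and tested with edgeR's quasi-likelihood test with the mouse as a term, and an adjusted p is Benjamini-Hochberg over all genes tested; the genes that the gates use were left out. Against Lamp5 sums 816 genes (13.5% of 6037) were higher in Vip and 782 (13.0%) lower. Against Sst sums the counts were 841 (13.2% of 6369) and 821 (12.9%), and against Pvalb sums 1583 (21.7% of 7280) and 1442 (19.8%). The 3 comparisons share the Vip sums, so their values are given side by side. These shares over all genes are the background for every count of list genes below. The median log2 fold change over all genes tested was 0.00972, -0.00271 and 0.0102 against Lamp5, Sst and Pvalb. An SE of a log2 fold change is its absolute value divided by the square root of the edgeR F statistic.

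Genes of the caudal ganglionic eminence, the origin that Vip and Lamp5 cells share, were higher in Vip nuclei than in each other class. Of the list's tested members 9 of 10 were higher and 1 lower against Lamp5, 9 and 1 of 11 against Sst, and 10 and 1 of 11 against Pvalb. Prox1 was 209 to 314, median 260.1 CPM in Vip sums, 76.7 to 151, median 94.9 in Lamp5, 0 to 25.97, median 5.55 in Sst and 0 to 23.1, median 18.7 in Pvalb. Its ranges in Vip and in the other classes did not overlap. The log2 fold change was 1.41 (SE 0.096, adjusted p = 3.3e-10) against Lamp5, 5.15 (SE 0.28, adjusted p = 1.07e-11) against Sst and 4.26 (SE 0.20, adjusted p = 1.82e-13) against Pvalb.

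Npas1, a transcription factor gene, separated Vip from Lamp5 and Pvalb but not from Sst nuclei. It was 30.8 to 81.4, median 51.9 CPM in Vip, 0 to 10.4, median 0 in Lamp5, 11.1 to 67.00, median 37.5 in Sst and 0 to 4.71, median 2.500 in Pvalb sums. The log2 fold change was 4.33 (SE 0.40, adjusted p = 3.08e-08) against Lamp5 and 4.39 (SE 0.27, adjusted p = 1.97e-11) against Pvalb, whereas against Sst it was 0.24 (SE 0.20, adjusted p = 0.423), which did not pass. Egfr, the receptor of epidermal growth factor, was 279.8 to 635, median 491 CPM in Vip and 217 to 531, median 448 in Lamp5 sums, ranges that overlapped, and had log2 fold changes of 0.32, 5.85 and 3.68 against Lamp5, Sst and Pvalb. Nfib was the exception against Lamp5, at -0.79 (SE 0.11, adjusted p = 9.15e-06), although it was higher than in Sst and Pvalb nuclei (3.24 and 1.98).

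Genes of the medial ganglionic eminence, from which Sst and Pvalb cells arise, were mostly lower in Vip nuclei than in those classes, with 8 of 9 lower against Sst and 7 of 9 against Pvalb. Lhx6, which specifies that lineage, was 0 to 5.61, median 1.84 CPM in Vip, 41.4 to 103, median 68.2 in Sst and 46.2 to 72.2, median 62.2 in Pvalb sums, with log2 fold changes of -4.64 (SE 0.24, adjusted p = 7.12e-12) and -4.37 (SE 0.23, adjusted p = 1.67e-12). Sox6 followed at -3.98 and -3.64, and the synaptic ligand Nxph1 at -4.13 and -3.62. The members higher in Vip were Kcnc1 against Sst (0.56) and Elfn1 and Reln against Pvalb (3.48 and 1.26). Against Lamp5 nuclei the list split: 5 of 8 were higher in Vip, Sox6 (1.80) and Satb1 (1.95) among them, and Nxph1 (-3.33) and Reln (-2.34) were lower.

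Elfn1, which recruits metabotropic glutamate receptors to synapses onto Sst cells, belongs to this list and was abundant in Vip nuclei. It was 67.6 to 164, median 123 CPM in Vip, 0 to 12.2, median 0 in Lamp5, 119 to 261, median 159 in Sst and 2.83 to 23.2, median 10.00 in Pvalb sums. Vip levels lay above every Lamp5 and Pvalb value and overlapped those of Sst, with log2 fold changes of 5.41 (SE 0.32, adjusted p = 5.05e-11), -0.59 (SE 0.10, adjusted p = 0.000136) and 3.48 (SE 0.19, adjusted p = 2.81e-12) against Lamp5, Sst and Pvalb.

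**Figure D2:**
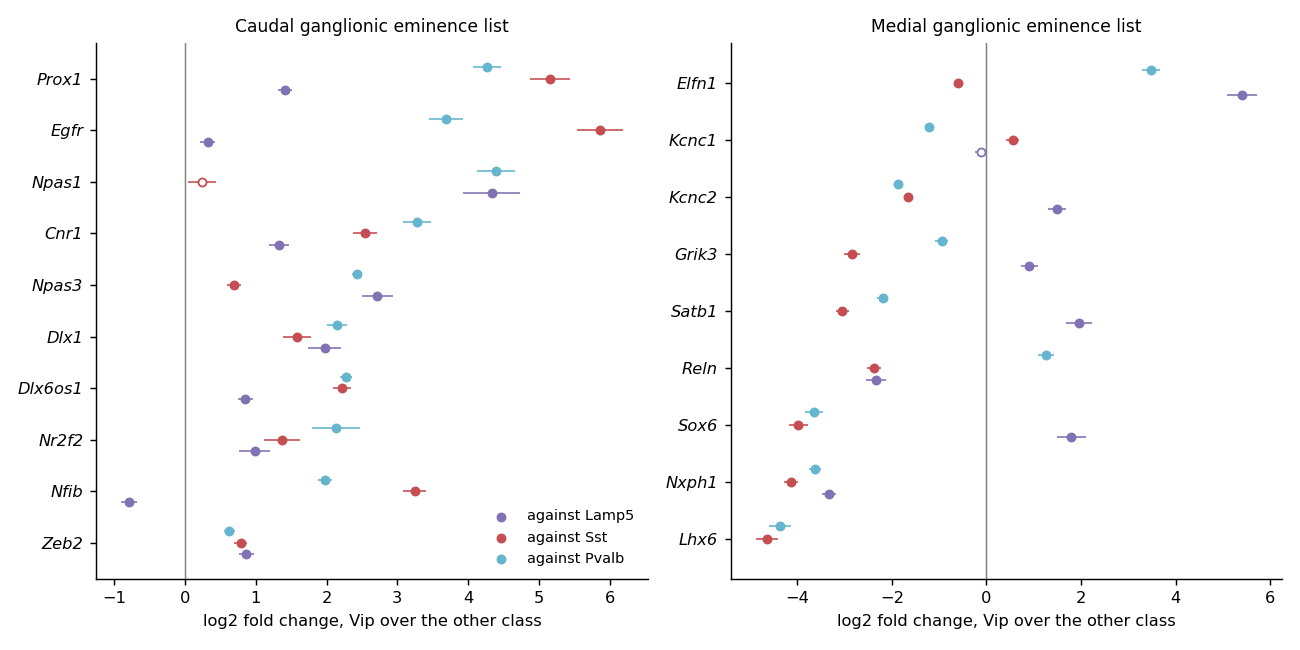
Log2 fold change of Vip sums against Lamp5, Sst and Pvalb sums for genes of the caudal and medial ganglionic eminence lists. Bars are the standard error derived from the edgeR F statistic of the fit over 9 mice. Filled points have an adjusted p under 0.05, open points do not, and a gene not tested in a comparison has no point. Most caudal genes lie above 0 in all 3 comparisons, and Lhx6, Sox6 and Nxph1 lie far below 0 against Sst and Pvalb.

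The largest differences over all genes named a further set, which includes some members of those lists. Against Lamp5 the largest rise was Mybpc1, a myosin-binding protein gene that serves as a marker of one group of Vip cells, with 33.02 to 139 (median 84.5) CPM in Vip sums and 0 to 3.05 (median 0) in Lamp5 sums. The 2 UMIs in Lamp5 sums limit the ratio, which was 138 times (95% counting interval 37.9 to 1141; 477 against 2 UMIs). Mybpc1 had a log2 fold change against Pvalb sums of 0.02 (SE 0.12, adjusted p = 0.938), which did not pass. Synpr, a synaptic vesicle protein, was 1297 to 1939 (median 1769) CPM in Vip sums and 22.4 to 286 (median 84.6) in Lamp5 sums, a log2 fold change of 4.26 (SE 0.25, adjusted p = 4.57e-11). Further rises by the rule were Elfn1, Lama3, Wnt5b, Fbln2, Npas1 and Cp, with log2 fold changes of 4.30 to 5.41. The largest falls were Ndnf (-4.00), the secreted marker of neurogliaform Lamp5 cells, Nxph1, the vesicle protein Sv2c (-3.21), the potassium channel subunit Kcns3 (-3.20), Mpped1, Ndst3, Coro6 and Crispld1.

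Against Sst, the rise of largest size was Frem1, an extracellular matrix gene, with 391 times (95% counting interval 69.8 to 15457; 504 against 1 UMI) the level in Sst sums. Grpr, the receptor of gastrin-releasing peptide, was 19.4 to 58.8 (median 42.3) CPM in Vip sums and 0 to 3.36 (median 0) in Sst sums, and Cbln2, a synapse organizer, 21.8 to 84.3 (median 36.9) CPM in Vip sums and 0 to 5.91 (median 0) in Sst sums. The 2 UMIs of each in Sst sums gave ratios of 89.5 times (95% counting interval 24.5 to 743; 231 against 2 UMIs) and 86.02 times (95% counting interval 23.5 to 715; 222 against 2 UMIs). Kit, a receptor tyrosine kinase, was 116 to 298 (median 203) CPM in Vip sums and 0 to 13.4 (median 4.47) in Sst sums, with a log2 fold change of 5.004 (SE 0.20, adjusted p = 2.89e-13), and Egfr, Prox1, its antisense RNA Prox1os and Mybpc1 completed the set. The falls were 9630002D21Rik (-5.55), Moxd1 (-5.43), Crhbp (-5.11), which binds corticotropin-releasing hormone, Lhx6, Lama4, Nxph1, Eya4 and Sox6.

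Against Pvalb, Fbln2 (6.52, SE 0.30, adjusted p = 2.12e-13), Tac2, Cbln2, Grpr, Col15a1, Igf1, Rgs12 and Plpp4 rose most. The 4 UMIs of Fbln2 in Pvalb sums limit its ratio, which was 112 times (95% counting interval 43.4 to 413, from 381 against 4 UMIs). The ratio of Tac2 to its level in Pvalb sums was 76.02 times (95% counting interval 25.6 to 372; 194 against 3 UMIs). Igf1, the growth factor that some Vip cells release, was 405 to 739 (median 566) CPM in Vip sums and 3.32 to 28.5 (median 16.4) in Pvalb sums, and it was also higher than in Lamp5 and Sst sums (2.34 and 2.27). Mypn (-6.09), Eya4 (-5.11), Gm26633, Moxd1, 9630002D21Rik, Cemip, the delta opioid receptor Oprd1 (-4.55) and Syt2, the calcium sensor of fast release at Pvalb terminals (-4.48), fell most.

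Receptors for neuromodulators set Vip nuclei apart in both directions. Of the list's tested members 5 were higher and 5 lower of 12 against Lamp5, 6 and 5 of 13 against Sst, and 7 and 4 of 13 against Pvalb. Those higher against every class were Npy1r, Htr2c, Adra1b and Cnr1, and Htr2a was lower against every class. Adra1b, the alpha-1B adrenergic receptor, was 154 to 339, median 223 CPM in Vip, 25.8 to 84.6, median 68.5 in Lamp5, 5.91 to 28.8, median 16.5 in Sst and 0 to 22.3, median 16.4 in Pvalb sums. No Vip value fell within another class. Its log2 fold changes were 1.90 (SE 0.14, adjusted p = 1.42e-09), 3.63 (SE 0.14, adjusted p = 1.63e-13) and 3.98 (SE 0.16, adjusted p = 4.14e-14) against Lamp5, Sst and Pvalb.

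Among serotonin receptors Htr2c was 250.0 to 354, median 316 CPM in Vip sums, with means of 84.6, 87.9 and 89.97 CPM in Lamp5, Sst and Pvalb sums and log2 fold changes of 1.99, 2.02 and 1.89. Htr2a, which couples to the same G proteins, was 8.41 to 44.7, median 12.9 CPM in Vip sums against means of 93.2, 50.3 and 51.9, with log2 fold changes of -2.26, -1.495 and -1.502. The ionotropic receptor Htr3a, the usual marker of the lineage, averaged 18.3 CPM in Vip and 2.03, 0.664 and 0.690 CPM in the other sums, too few counts for the filter, and its partner Htr3b had no UMI in Vip sums.

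For acetylcholine, the muscarinic receptor Chrm3 was higher than in Lamp5 and Pvalb (2.21 and 1.89) and lower than in Sst nuclei (-0.48), Chrm2 was lower than in Sst and Pvalb (-2.73 and -2.26), and the nicotinic subunit Chrna7 was higher than in Sst and Pvalb (1.54 and 1.70) with 0.07 (SE 0.14, adjusted p = 0.782) against Lamp5. Npy1r, the Y1 receptor of neuropeptide Y, was 26.6 to 45.1, median 34.3 CPM in Vip sums, above the means of 9.12, 4.16 and 0.856 CPM elsewhere, with log2 fold changes of 2.08, 3.51 and 5.04. Cnr1, the cannabinoid receptor at terminals of cholecystokinin cells, was 225 to 459, median 295 CPM in Vip sums and had log2 fold changes of 1.32, 2.54 and 3.27. The receptors of VIP itself, Vipr1 and Vipr2, averaged 14.1 and 4.29 CPM in Vip sums and did not pass the filter on low counts.

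**Figure D3:**
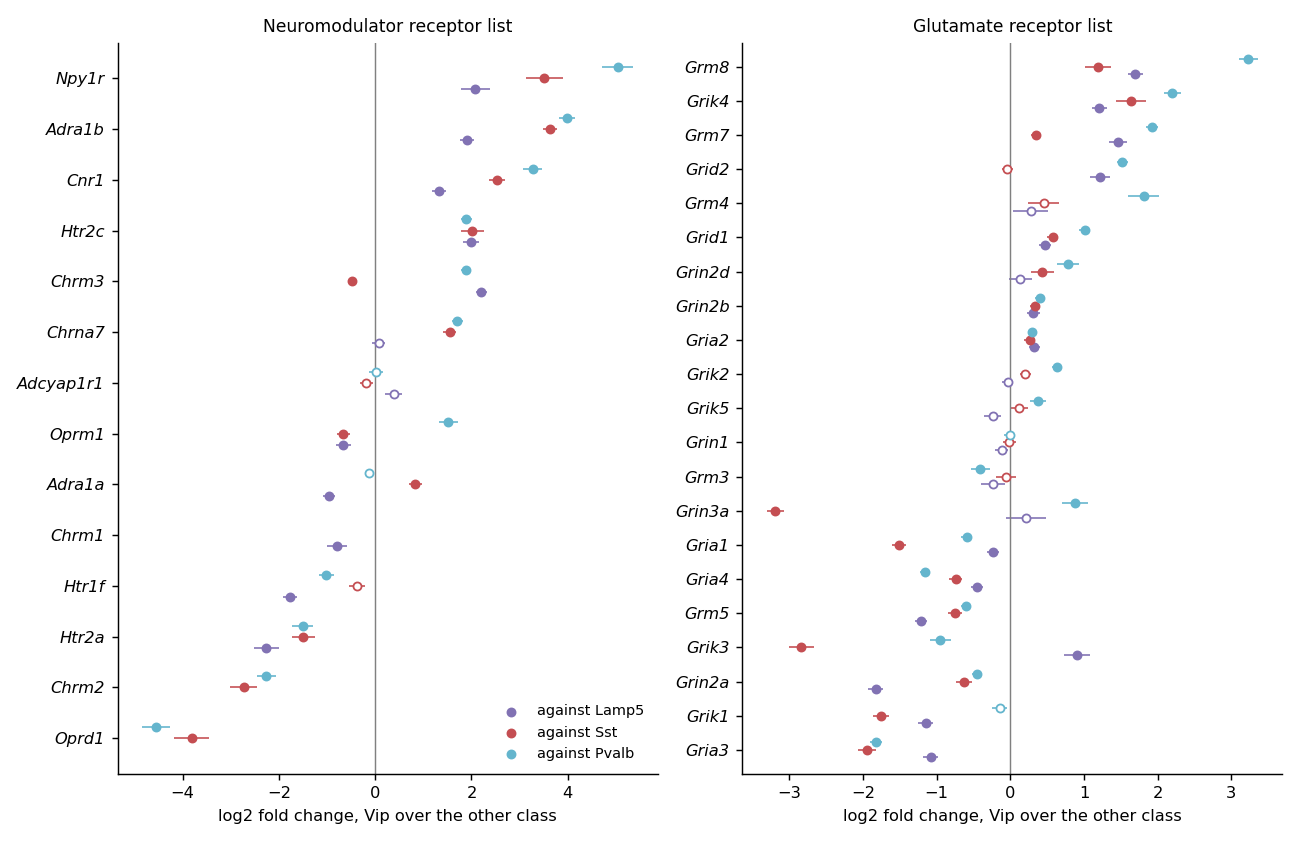
Log2 fold change of Vip sums against Lamp5, Sst and Pvalb sums for receptors of neuromodulators and glutamate. Bars are the standard error derived from the edgeR F statistic of the fit over 9 mice. Filled points have an adjusted p under 0.05, open points do not, and a gene not tested in a comparison has no point. Npy1r, Adra1b, Cnr1, Htr2c, Grm8 and Grik4 lie above 0 in all 3 comparisons, and Htr2a and Gria3 below.

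Glutamate receptors divided by subunit. In the list of 22 tested genes 9 were higher and 6 lower against Lamp5, 7 and 9 against Sst, and 13 and 7 against Pvalb. Among AMPA receptor subunits, Gria2, which makes the channel impermeable to calcium, was 0.33, 0.26 and 0.30 against Lamp5, Sst and Pvalb, whereas Gria1 (-0.24, -1.51 and -0.59), Gria3 (-1.08, -1.94 and -1.82) and Gria4 (-0.46, -0.74 and -1.16) were lower, all with an adjusted p under 0.05. Of the NMDA receptor subunits Grin2b was higher (0.31, 0.34 and 0.40) and Grin2a lower (-1.83, -0.62 and -0.45). Gria3 was 243 to 439, median 361 CPM in Vip sums against means of 752, 1323 and 1257 CPM. The presynaptic receptor Grm8 (1.70, 1.19 and 3.23), Grm7 (1.46, 0.35 and 1.93) and the kainate subunit Grik4 (1.21, 1.64 and 2.20) were higher against every class, and Grm5 was lower (-1.21, -0.75 and -0.61).

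Of 32 to 33 tested ion channel genes 5 were higher and 12 lower against Lamp5, 11 and 9 against Sst, and 15 and 16 against Pvalb. Kcnt2, a sodium-activated potassium channel, was 785 to 1482, median 1005 CPM in Vip and 157 to 353, median 258 in Lamp5 sums, without overlap, and its log2 fold changes were 2.05 (SE 0.14, adjusted p = 2.9e-10), 2.60 (SE 0.15, adjusted p = 1.85e-11) and 4.36 (SE 0.15, adjusted p = 2.75e-15). Kcnb2 (1.66, 0.99 and 2.12) and Kcnip1 (1.09, 0.69 and 0.90) were also higher against every class, and Cacna1a, the pore of P/Q-type calcium channels, was lower (-0.42, -0.86 and -1.10). The channels of fast spiking Kcnc1 and Kcnc2 were lower than in Pvalb nuclei (-1.22 and -1.87). The calcium channel subunit Cacna2d1 differed in direction, with -1.82, 2.61 and 1.95 against Lamp5, Sst and Pvalb.

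Adhesion and guidance genes of the synapse were higher in 16 and lower in 10 of 34 against Lamp5, 15 and 9 against Sst, and 15 and 15 against Pvalb. The sorting receptors Sorcs3 and Sorcs1 were higher against every class: Sorcs3 was 1601 to 2366, median 1908 CPM in Vip sums against means of 449, 159 and 114 CPM, with log2 fold changes of 2.23, 3.64 and 4.23, and Sorcs1 had 1.76, 3.21 and 3.28. The netrin receptor Unc5d was lower against every class (-2.52, -2.28 and -1.60). Erbb4, the neuregulin receptor of interneurons, was 6590.1 to 9228, median 7975 CPM in Vip, 4396 to 11122, median 7472 in Lamp5, 1093 to 3511, median 1613 in Sst and 7824 to 12633, median 10663 in Pvalb sums. It was higher than in Sst (2.17), lower than in Pvalb (-0.24) and did not pass against Lamp5 (0.19, SE 0.11, adjusted p = 0.225).

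Genes of GABA handling and GABA receptors were higher in 2 and lower in 8 of 18 against Lamp5, 6 and 1 of 16 against Sst, and 5 and 8 of 18 against Pvalb. Gabrd, the delta subunit of tonic inhibition, was lower than in Lamp5 and Pvalb nuclei (-2.34 and -2.90). Gphn, the scaffold of inhibitory synapses, was higher against every class (0.35, 0.25 and 0.39). Activity-regulated genes were never lower: 4 of 9 were higher against Lamp5, 5 of 11 against Sst and 10 of 11 against Pvalb, with Nr4a1 at 0.95, 0.78 and 1.68, and Igf1 and Pcsk1 are counted in this list too. Peptide and granin genes were higher in 4 and lower in 1 of 9 against Lamp5, 3 and 2 of 11 against Sst, and 9 and 0 of 14 against Pvalb; the prohormone convertase Pcsk1 was 73.9 to 117, median 79.8 CPM in Vip sums and had log2 fold changes of 2.44, 1.06 and 3.66.

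In the insulin and growth factor list 5 were higher and 4 lower of 17 against Lamp5, 12 and 2 against Sst, and 14 and 2 against Pvalb; the mineralocorticoid receptor Nr3c2 (0.80, 1.71 and 1.17) and the insulin receptor Insr (0.27, 0.32 and 0.23) were higher against every class and Fgf14 was lower (-0.76, -0.55 and -0.19). Circadian clock genes were higher in 1 and lower in 5 of 13 against Lamp5, 5 and 0 against Sst, and 1 and 3 against Pvalb. Over all genes 13.5% were higher and 13.0% lower against Lamp5, 13.2% and 12.9% against Sst, and 21.7% and 19.8% against Pvalb. A list count near these shares says nothing particular about the list. Nuclear genes of oxidative phosphorylation were lower than in Pvalb nuclei in 16 of 42 and higher in none, against 1 higher and 0 lower of 20 for Lamp5 and 0 of 23 for Sst. Ribosomal protein genes (0 higher and 1 lower of 3, 1 and 0 of 9, 1 and 0 of 14) and chaperones (1 and 0 of 10, 1 and 0 of 12, 2 and 1 of 14) held few calls. Of the 5 tested genes among those that the study named for AAV-B3GNT3 in neurons, Ccnd2 was higher (1.23, 1.09 and 1.91) and Rims4 lower (-1.10, -1.05 and -1.24) against every class.

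Within the members, the genes that divide Vip cells were each found in a minority of nuclei. To compare shares at equal depth each nucleus was thinned to 3000 UMIs, which left 674 of the 686 members, 8912 of the 9044 excitatory and 3981 of the 15646 oligodendrocyte nuclei. Reln had a UMI in 19.0% of thinned members (25.9% before thinning), Tac2 in 8.90% (19.2%), the chemokine gene Cxcl14 in 8.01% (18.1%), Chat in 8.01% (11.8%), Penk in 7.12% (15.2%), Crh in 6.23% (13.99%), Htr3a in 4.01% (11.4%) and Calb2 in 3.86% (7.29%). Reln was in 6.33% of thinned excitatory and 6.56% of thinned oligodendrocyte nuclei. Its level was 367, 141 and 117 CPM in members with 1, 2 and at least 3 UMIs of Vip. In GABAergic nuclei with Adarb2 and no Vip it was 484 CPM, and whether its share among members marks a subtype was not tested. In thinned excitatory and oligodendrocyte nuclei Chat was found in 0.0112% and 0.0754%, Tac2 in 0.191% and 0.327%, and Crh in 0.146% and 0.226%, so these genes stood above the share in cells that should lack them. Cck was in 7.72% of members (16.6% before thinning) against 7.46% of excitatory and 4.82% of oligodendrocyte nuclei, and Npy in 3.56% (8.75%) against 0.909% and 2.71%; such shares cannot be read as expression by themselves.

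**Figure D4:**
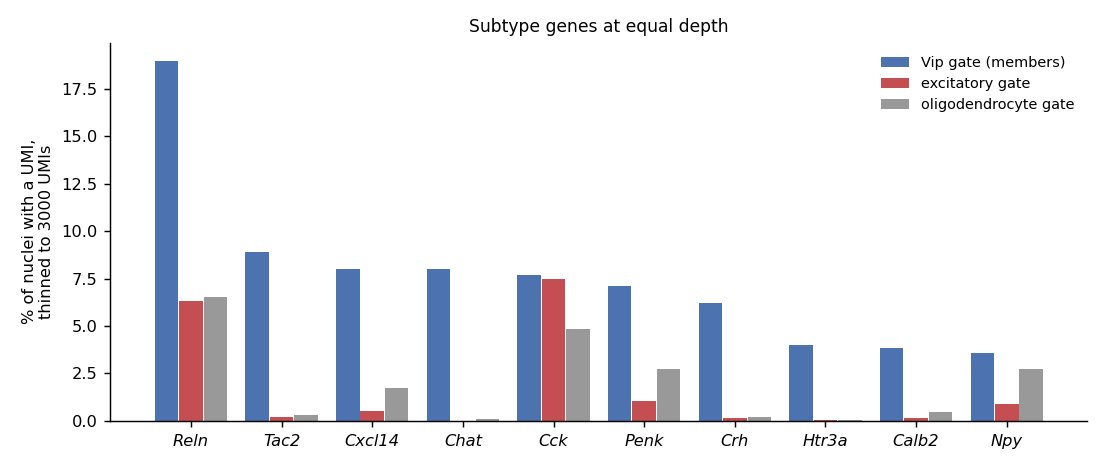
Share of nuclei with at least 1 UMI (%) after thinning to 3000 UMIs, for 10 genes that divide Vip cells, in members, excitatory nuclei and oligodendrocyte nuclei pooled over 9 mice; bars have no error bar because nuclei are not replicates. Chat, Tac2, Crh, Htr3a and Calb2 are in 3.86% to 8.90% of members and in under 0.5% of nuclei of each other class, and the share with Cck is 7.72% in members and 7.46% in excitatory nuclei.

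The shares varied severalfold among mice. Across mice the thinned share of Chat was 4.84% to 11.9%, that of Tac2 2.97% to 14.04%, that of Crh 2.86% to 11.5%, that of Reln 11.9% to 28.6% and that of Calb2 0.990% to 14.3%. By group, the pooled thinned share of Tac2 was 6.09% in young, 12.7% in the aged AAV-EGFP group and 6.88% in aged AAV-B3GNT3 members, and that of Cck 4.57%, 10.8% and 6.88%. The share with Cck moved alike in excitatory nuclei, at 5.86%, 10.6% and 6.40%. That with Tac2 was 0.217%, 0.470% and 0.326% in oligodendrocyte nuclei, also highest in the aged AAV-EGFP group. In excitatory nuclei it was 0.172%, 0.183% and 0.223%. These Tac2 shares rest on 3 to 6 nuclei per group, and no test was made on any of the shares. Tac2 and Cxcl14 were found together in 50 members where the product of their shares gives 23.9, and Crh shared 38 with Cxcl14 (17.4) and 36 with Tac2 (18.5). Chat and Reln shared 11 (21.0) and Penk and Cxcl14 12 (18.8). These counts are a description over nuclei that share libraries, and deeper nuclei show more genes of every kind.

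Members with a UMI of a subtype gene differed from the rest in further genes, given here as a description. In the 81 members with Chat the choline transporter Slc5a7 stood at 81.6 CPM, against 10.4 CPM in the other 605 members, and was higher in 8 of 9 mice and lower in none. Npas1 was at 15.1 against 54.5 CPM, lower in 9 of 9 mice, Reln at 49.8 against 199.6 and Mybpc1 at 18.1 against 92.8. Members with Crh had more Col15a1 (83.0 against 23.3) and Crispld2 (28.9 against 7.02). Vip, which the gate used, was at 863 CPM in members with Crh and 548 in the rest. It was also higher in members with Tac2 (833 against 532 CPM) and lower in those with Reln (463 against 650 CPM). Members with Cck had more Cnr1 (564 against 240.2 CPM, 9 of 9 mice), and members with Calb2 less Reln (39.6 against 194.6) and Col15a1 (6.60 against 34.3). The 50 members with Calb2 were 0.980% to 20% of members by mouse, too few to count mice by direction. In a mouse with few nuclei of a subtype, a gene at a low level can be at 0 and so count as lower.

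Ageing was tested as aged AAV-EGFP against young AAV-EGFP mice, with edgeR on the member sums of all 9 mice. Of 7186 genes 3 passed (0.0417%), 1 higher and 2 lower, and 848 had an unadjusted p under 0.05. The gene that rose was Gm26854, an RNA antisense to the oxidation resistance gene Oxr1, and those that fell were Pde4a, a phosphodiesterase that degrades cyclic AMP, and Hsph1, a large heat shock chaperone. In all condition comparisons, genes named by size of change were chosen among those whose compared groups did not overlap. Lack of overlap between compared groups is therefore a description and no further support.

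Gm26854 (chr15:41758060-41788911) was 15.5, 7.42 and 11.6 CPM in the young mice, 39.9, 49.9 and 59.4 in the aged AAV-EGFP group and 19.6, 16.5 and 18.2 in aged AAV-B3GNT3 mice. Every aged AAV-EGFP value was above every other value. Its log2 fold change with age was 2.23 (SE 0.34, adjusted p = 0.0138). Its UMIs were 8, 6 and 4 in young, 22, 48 and 43 in aged AAV-EGFP and 10, 9 and 13 in aged AAV-B3GNT3 sums. It met the count filter only through the aged AAV-EGFP group, where it was high, so its call is given as a description. Pde4a (chr9:21165714-21213248) was 136, 125 and 148 CPM in young, 58.00, 55.1 and 71.8 in the aged AAV-EGFP group and 127, 84.5 and 101 in aged AAV-B3GNT3 mice, so that the aged AAV-EGFP mice were lowest without overlap, with a log2 fold change of -1.08 (SE 0.19, adjusted p = 0.0419). Hsph1 (chr5:149614287-149636376) was 58.3, 58.1 and 72.7 CPM in young, 18.1, 20.8 and 17.96 in the aged AAV-EGFP group and 41.2, 55.1 and 26.6 in aged AAV-B3GNT3 mice, again without overlap, and changed by -1.63 (SE 0.29, adjusted p = 0.0419). Coordinates are those of the mm10 build in the GENCODE vM21 annotation. Whether reads were counted by strand was not stated in the sources used here, so Gm26854 cannot be told apart from reads of Oxr1.

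The genes with the next smallest p, named because fewer than 5 passed, were AC149090.1 and the histone deacetylase gene Hdac4. AC149090.1 was 359, 71.8 and 201 CPM in young, 522, 659 and 747 in the aged AAV-EGFP group and 633, 461 and 524 in aged AAV-B3GNT3 mice, and its log2 fold change was 1.71 (SE 0.32, adjusted p = 0.0534). Hdac4 was 151, 183 and 151 CPM in young, 65.3, 81.1 and 93.95 in the aged AAV-EGFP group and 149, 119 and 112 in aged AAV-B3GNT3 mice, with -0.97 (SE 0.18, adjusted p = 0.054), and neither passed. With at least 2 UMIs of Vip required, 11 genes passed, with Gm26854 and Hsph1 among them, whereas Pde4a changed by -0.97 (edgeR adjusted p = 0.0653) and did not. With doublets removed Gm26854 was the 1 gene that passed, and Pde4a (-1.21, edgeR adjusted p = 0.0902) and Hsph1 (-1.45, adjusted p = 0.132) did not. The count of calls was unstable: 0 genes passed with no upper limit on genes per nucleus and 17 without nuclei that carry striatal markers. It was 2, 0 and 0 without young replicate 1, 2 and 3, 15, 1 and 0 without aged AAV-EGFP replicate 1, 2 and 3, and 1, 3 and 11 without aged AAV-B3GNT3 replicate 1, 2 and 3. The last group is outside this comparison but shares its count filter, scaling and estimate of spread. Which of these moved the count was not tested.

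AAV-B3GNT3 was tested against AAV-EGFP in aged mice. Of 7186 genes 14 passed (0.195%), 3 higher and 11 lower in AAV-B3GNT3, and 800 had an unadjusted p under 0.05. With doublets removed 4 of the 14 passed (Gm26848, Gm43376, Gm26854 and Tmtc2, all lower), and the other 10 had edgeR adjusted p between 0.0600 and 0.0973. The 11 lower ones included P2ry14, a receptor for UDP-sugars, Tmtc2, an O-mannosyltransferase of cadherins, Sgcd, a sarcoglycan, Rarb, a retinoic acid receptor, and 7 noncoding RNAs. Hs3st2, which adds 3-O-sulphate to heparan sulphate in neurons, was higher. This comparison and that of ageing share the aged AAV-EGFP mice, so a gene that is high or low in those mice has opposite signs in the pair of comparisons.

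P2ry14 (chr3:59113855-59153618) was 58.00, 91.5 and 93.95 CPM in the aged AAV-EGFP group and 21.6, 20.2 and 37.9 in aged AAV-B3GNT3 mice, and 29.1, 49.5 and 55.2 in young mice. The aged groups did not overlap, and the log2 fold change was -1.73 (SE 0.30, adjusted p = 0.0368). P2ry14 overlaps the gene Med12l on the opposite strand. Tmtc2 (chr10:105187663-105574451) was 276, 247 and 156 CPM in aged mice given AAV-EGFP, 118, 90.03 and 133 in aged AAV-B3GNT3 and 208, 219 and 206 in young mice, and changed by -1.13 (SE 0.22, adjusted p = 0.0407). Hs3st2 (chr7:121391859-121501770) was 48.9, 43.7 and 63.6 CPM in aged mice given AAV-EGFP, 99.9, 139.6 and 135 in aged AAV-B3GNT3 and 113, 66.8 and 108 in young mice, with a log2 fold change of 1.13 (SE 0.22, adjusted p = 0.0432). Every AAV-B3GNT3 value of Hs3st2 was above every aged AAV-EGFP value, and the young values lay above the aged AAV-EGFP values too.

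The noncoding RNA Gm46102 was 47.1, 46.8 and 60.8 CPM in the aged AAV-EGFP group and 112, 154 and 111 CPM in aged AAV-B3GNT3 mice, with a log2 fold change of 1.13 (SE 0.22, adjusted p = 0.0432), and 27.2, 42.1 and 52.3 CPM in young mice. Gm26854 was lower in AAV-B3GNT3 mice by the values above (-1.60, SE 0.30, adjusted p = 0.0407), and here too it met the count filter only through the aged AAV-EGFP group. Gm26848 (-1.42), Gm43376 (-1.40), Gm26699 (-1.83), Gm48321 (-1.60) and Gm38505 (-0.91) were lower too, with adjusted p between 0.0297 and 0.0461 and no overlap of the aged groups. Gm43376 lies antisense to Nbea and Gm48321 to Thrb, and Gm26848, Gm26699 and Gm38505 overlap other genes, so their reads cannot be told apart. Gm29266 (higher) and AC154782.1 (lower) passed but fell below the mean of 20 UMIs per mouse set for named genes. Each met the count filter only through the group where it was high, Gm29266 through aged AAV-B3GNT3 and AC154782.1 through aged AAV-EGFP mice.

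With at least 2 UMIs of Vip required, 21 genes passed for treatment, and 10 of the 14 were among them. Those that did not pass were Tmtc2 (-1.21, edgeR adjusted p = 0.0838), Gm46102 (0.94, adjusted p = 0.131), Sgcd and Rarb. Sgcd (chr11:46896253-47988969) was 435, 342 and 217 CPM in aged mice given AAV-EGFP, 135, 134 and 135 in aged AAV-B3GNT3 and 241, 605 and 302 in young mice, and changed by -1.44 (SE 0.29, adjusted p = 0.0461). Rarb (chr14:16430839-16819156) was 116, 229 and 51.1 CPM in aged mice given AAV-EGFP, 37.2, 38.6 and 30.8 in aged AAV-B3GNT3 and 138, 181 and 72.7 in young mice, and changed by -2.11 (SE 0.43, adjusted p = 0.0462). In members with 1, 2 and at least 3 UMIs of Vip, Sgcd was at 711, 279 and 136 CPM and Rarb at 259, 51.9 and 62.3 CPM, so the levels of both were highest in nuclei with a single UMI. With at least 2 UMIs of Vip required, Sgcd changed by -0.73 (edgeR adjusted p = 0.388) and Rarb by -1.71 (edgeR adjusted p = 0.275), and neither passed. Without nuclei that carry striatal markers Sgcd changed by -1.65 (edgeR adjusted p = 0.0173), which passed, and Rarb by -0.89 (edgeR adjusted p = 0.466), which did not.

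The treatment count also moved with single mice. It was 12, 8 and 13 without young replicate 1, 2 and 3, 14, 0 and 44 without aged AAV-EGFP replicate 1, 2 and 3, and 0, 0 and 40 without aged AAV-B3GNT3 replicate 1, 2 and 3. With no upper limit on genes per nucleus 0 genes passed in edgeR, with 797 at an unadjusted p under 0.05. By DESeq2 3 of the 14 passed (Gm26848, Tmtc2 and Gm38505), Sgcd and Rarb did not, and the other 9 had no adjusted p.

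**Figure D5:**
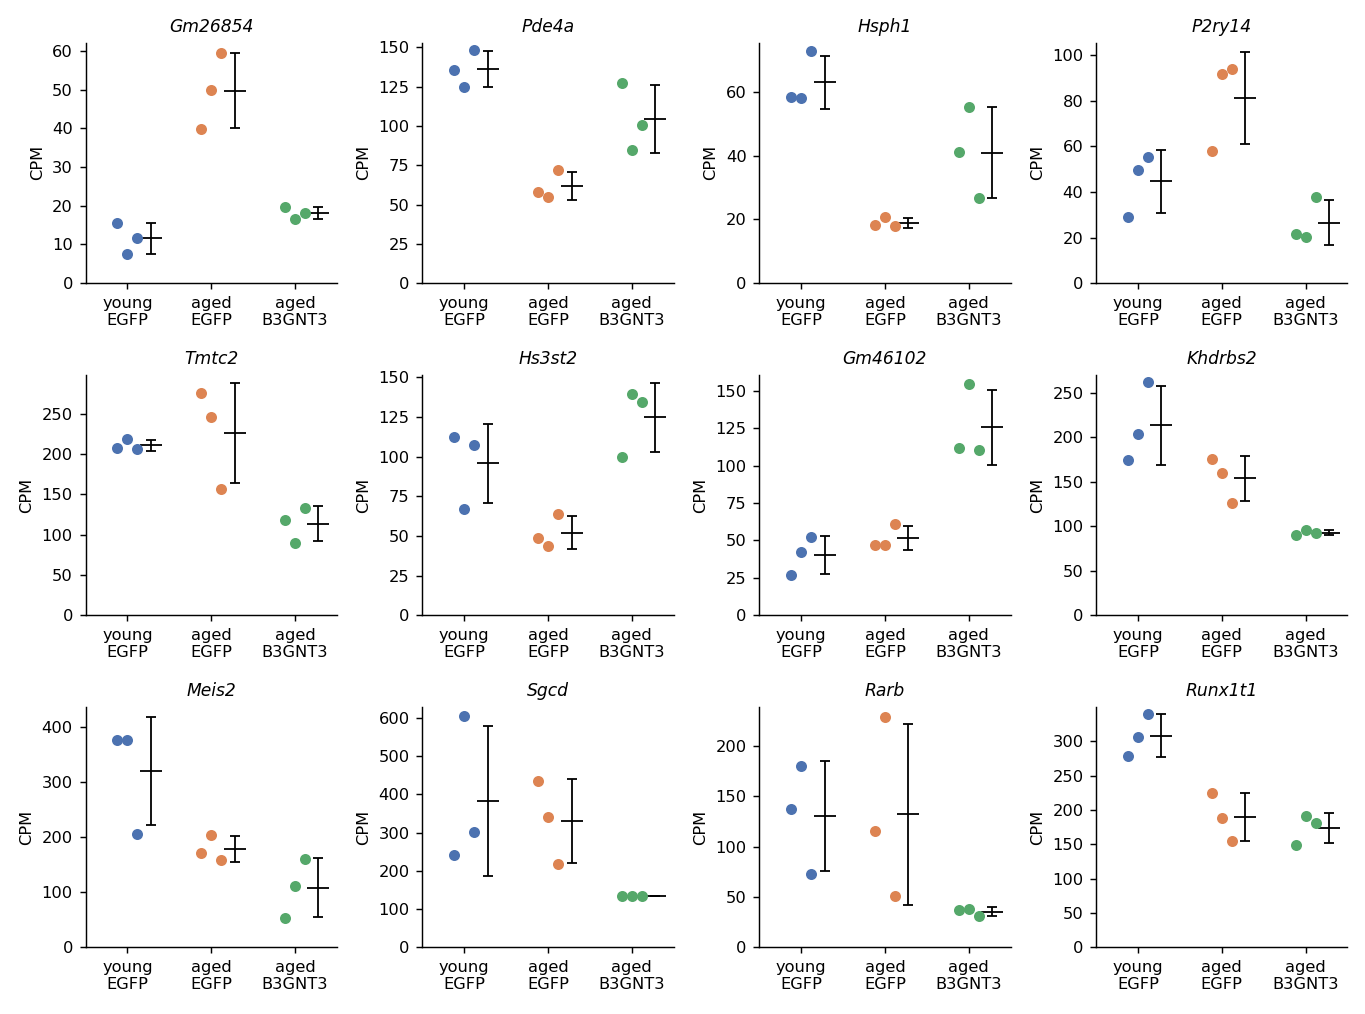
Levels (CPM of the member sum) of 12 genes named for the condition comparisons, in each mouse of the 3 groups; each dot is a mouse, and the bar is the mean ± SD (n = 3). Gm26854 is highest and Hsph1 lowest in aged AAV-EGFP mice, Gm46102 is highest and Sgcd and Rarb are lowest in aged AAV-B3GNT3 mice, and Khdrbs2 is lowest in aged AAV-B3GNT3 mice.

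Aged AAV-B3GNT3 mice were also compared with young AAV-EGFP mice, a comparison in which age and virus both differ and cannot be told apart. Of 7186 genes 11 passed (0.153%), 3 higher and 8 lower, and 772 had an unadjusted p under 0.05. Among genes with a mean of at least 20 UMIs per mouse the largest rise by fold was that of the noncoding RNA 2810049E08Rik, at 40.8, 39.6 and 26.2 CPM in young, 68.9, 54.1 and 105 in the aged AAV-EGFP group and 155, 121 and 123 in aged AAV-B3GNT3 mice, with a log2 fold change of 1.75 (SE 0.25, adjusted p = 0.00425). Gm46102 changed by 1.55 (SE 0.24, adjusted p = 0.00825). Khdrbs2, which regulates splicing of neurexins, was 175, 204 and 262 CPM in young, 176, 160.2 and 126 in the aged AAV-EGFP group and 90.1, 95.5 and 92.5 in aged AAV-B3GNT3 mice, with -1.28 (SE 0.20, adjusted p = 0.00825). For these genes the young and the aged AAV-B3GNT3 mice did not overlap, which was a condition for naming them.

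Runx1t1, a transcriptional corepressor, was 278, 306 and 340.1 CPM in young, 225, 188 and 155 in the aged AAV-EGFP group and 149, 191 and 181 in aged AAV-B3GNT3 mice and changed by -0.91 (SE 0.18, adjusted p = 0.0499). The nuclear receptor Rorb, of the clock gene list, was 89.3, 82.9 and 46.5 CPM in young, 45.3, 35.4 and 58.03 in the aged AAV-EGFP group and 45.1, 20.2 and 18.2 in aged AAV-B3GNT3 mice and changed by -1.57 (SE 0.32, adjusted p = 0.0499). Iqgap2, a scaffold of the cytoskeleton, was 67.98, 61.9 and 98.8 CPM in young, 16.3, 34.3 and 13.8 in the aged AAV-EGFP group and 31.4, 25.7 and 19.6 in aged AAV-B3GNT3 mice and changed by -1.64 (SE 0.33, adjusted p = 0.0499). All 3 were lower in every aged AAV-B3GNT3 mouse than in every young mouse. Acr had 1, 0 and 0 UMIs in young, 2, 14 and 5 in the aged AAV-EGFP group and 11, 11 and 13 in aged AAV-B3GNT3 sums and is named only because it passed with so few counts. It met the count filter only through the aged AAV-B3GNT3 group, where it was high, so its call is given as a description.

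Meis2, Pde7b, Sgcd and Baiap2 were lower as well. Meis2 was 377, 376 and 206 CPM in young, 172, 204 and 159 in the aged AAV-EGFP group and 52.9, 112 and 159.8 in aged AAV-B3GNT3 mice, with every young value above every aged value, and changed by -1.64 (SE 0.28, adjusted p = 0.0154). The phosphodiesterase Pde7b was 425, 335 and 256 CPM in young, 179, 266 and 126 in the aged AAV-EGFP group and 129, 176 and 122 in aged AAV-B3GNT3 mice, with -1.36 (SE 0.25, adjusted p = 0.0314). Baiap2, a postsynaptic scaffold, was 117, 113 and 108 CPM in young, 52.6, 81.1 and 58.03 in the aged AAV-EGFP group and 48.99, 56.96 and 56.1 in aged AAV-B3GNT3 mice, with -1.14 (SE 0.22, adjusted p = 0.0399), and both genes were lower in every aged AAV-B3GNT3 mouse than in every young mouse. Sgcd changed by -1.64 (SE 0.29, adjusted p = 0.0262). Levels at 1, 2 and at least 3 UMIs of Vip were 443, 177 and 147 CPM for Pde7b and 132, 35.6 and 61.99 CPM for Baiap2. With at least 2 UMIs of Vip, Meis2 still changed by -2.64 (edgeR adjusted p = 0.00736), whereas Pde7b (-0.77, adjusted p = 0.301), Baiap2 (-0.54, adjusted p = 0.546) and Sgcd (-1.18, adjusted p = 0.169) did not pass. Nor did Gm46102 (1.22, edgeR adjusted p = 0.0603), Runx1t1 (-0.74, adjusted p = 0.218) and Iqgap2 (-1.99, adjusted p = 0.169), so that 4 of the 11 genes passed in that fit, in which Acr was not tested. Without nuclei that carry striatal markers 6 of the 11 passed, and Meis2 (-1.57, edgeR adjusted p = 0.0952), Pde7b (-0.68, adjusted p = 0.276), Baiap2 (-0.64, adjusted p = 0.421) and Iqgap2 (-1.21, adjusted p = 0.289) did not. The remaining 1 of the 11 had no adjusted p in that fit. With doublets removed 6 of the 11 passed, Acr was not tested, and Meis2 (-1.46, edgeR adjusted p = 0.0992), Rorb (-0.88, adjusted p = 0.490), Runx1t1 (-0.97, adjusted p = 0.0540) and Iqgap2 (-1.57, adjusted p = 0.112) did not pass. The last 3 also missed the threshold with RLE size factors, by which 8 of the 11 passed. By DESeq2 5 of the 11 passed and the other 6 had no adjusted p. The count of calls was 16, 0 and 8 without young replicate 1, 2 and 3, 16, 21 and 33 without aged AAV-EGFP replicate 1, 2 and 3, and 3, 1 and 7 without aged AAV-B3GNT3 replicate 1, 2 and 3.

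Described by list, the 16 gene lists held 2 calls between conditions, Hsph1 among the chaperones with age and Rorb among the clock genes in aged AAV-B3GNT3 against young mice. Over all 7186 genes 0.0417% passed with age, 0.195% with AAV-B3GNT3 and 0.153% for aged AAV-B3GNT3 against young mice. A single call says nothing particular about its list. Among 17 tested ribosomal protein genes 16 had a log2 fold change above 0 with age and 3 with AAV-B3GNT3, with medians of 0.73 and -0.57 where the median of all genes tested was within 0.01 of 0; none passed. The summed level of 84 ribosomal protein genes was 709, 771 and 674 CPM in young, 912, 1129 and 1214 in the aged AAV-EGFP group and 852, 775 and 868 in aged AAV-B3GNT3 members. Every aged AAV-EGFP value was above every other value in members. In excitatory nuclei 2 of these mice had 940.5 and 1025 CPM, and the third, at 688 CPM, lay within the 606 to 713 of all the others. In oligodendrocyte nuclei the aged AAV-EGFP mice had 1634, 2440.1 and 2446 CPM, again above every other mouse (1175 to 1418). Nuclear genes of oxidative phosphorylation had medians of 0.29 with age (27 of 33 above 0) and -0.25 with AAV-B3GNT3 (6 of 33). The 85 genes of that list summed to 1416 to 1483 CPM in young, 1662 to 2084 in the aged AAV-EGFP group and 1475 to 1758 in aged AAV-B3GNT3 members, so that the aged groups overlapped. In excitatory nuclei 2 aged AAV-EGFP mice were highest (1495 and 1697 CPM) and the third, at 1292, lay within the 1200.05 to 1382 of all the others, and in oligodendrocyte nuclei these mice had 1919.98 to 2542 CPM, above every other mouse (1545 to 1885).

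The 15 tested Vip subtype genes had medians of 0.67 with age and -0.43 with AAV-B3GNT3, with 12 and 4 of 15 above 0, and none passed. The 26 genes of that list summed to 971.0 to 1060.5 CPM in young, 902.7 to 1295.1 in the aged AAV-EGFP group and 865.1 to 1140.5 in aged AAV-B3GNT3 members, ranges that overlap. In excitatory nuclei the same genes summed to 264 to 328 CPM in young, 369 to 404 in the aged AAV-EGFP group and 295 to 338 in aged AAV-B3GNT3 mice, and in oligodendrocyte nuclei to 93.8 to 134, 136 to 206 and 98.0 to 130 CPM, with every aged AAV-EGFP value above every other value in both classes. The 34 synapse adhesion genes had medians of 0.12 and -0.37, and the 13 activity-regulated genes -0.24 and 0.27, with no call. The 24 genes of the activity-regulated list summed to 2858 to 3506 CPM in young, 1671 to 2417 in the aged AAV-EGFP group and 2514 to 2815 in aged AAV-B3GNT3 members. Every aged AAV-EGFP value was below every other value, and the same held in excitatory nuclei (2304 to 2369.65, 1418 to 1596 and 1967 to 2018 CPM) but not in oligodendrocyte nuclei (828 to 987, 512 to 809.8 and 661 to 862 CPM). Of the 6 genes that the study named for AAV-B3GNT3 in neurons, all had a fold above 0 with AAV-B3GNT3 and none passed. That list came from these libraries and is no independent evidence. Rims4, which shapes presynaptic active zones, was 18.1, 26.01 and 29.01 CPM in the aged AAV-EGFP group and 62.7, 45.9 and 37.9 in aged AAV-B3GNT3 members (log2 fold change 0.80, SE 0.28, edgeR adjusted p = 0.275).

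The change with age in Vip sums was compared with that in the pooled sums of the Lamp5, Sst and Pvalb gates, as a test of the difference itself. Of 9986 genes 7 passed (0.0701%), all with a lower change in Vip, and 616 had an unadjusted p under 0.05. Among the 7 were Trhde, Cdh9, Runx1t1, Synpr, Iqgap2 and Elfn1. Iqgap2 had a log2 fold change of 0.02 in the pool and stood at 67.98, 61.9 and 98.8 CPM in young and 16.3, 34.3 and 13.8 in aged AAV-EGFP Vip sums against 358, 294 and 277 and 253, 324 and 328 in the pooled sums. The difference in log2 fold change was -1.71 (edgeR adjusted p = 0.0337), and the change in Vip alone was -1.63 (SE 0.32, adjusted p = 0.0574). Runx1t1 and Elfn1 had opposite signs in the Vip and pooled sums (-0.65 against 0.45 and -0.64 against 0.53), and none of these 4 changes passed on its own. With at least 2 UMIs of Vip required, 4 genes passed for this difference, 2 of them among the 7, and 0 passed in edgeR without young replicate 1, 2 or 3, where 588, 628 and 597 had an unadjusted p under 0.05. The pool itself differed in its makeup, with Sst nuclei giving 12.4% to 18.9% of its UMIs in young, 37.1% to 46.4% in the aged AAV-EGFP group and 16.8% to 34.1% in aged AAV-B3GNT3 mice. For the treatment effect 0 of 9986 genes passed (0%) in edgeR, and 436 had an unadjusted p under 0.05. The smallest adjusted p was that of Trhde, 0.338, and Sgcd and Nrip3 followed at 0.885.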

How the data were processed

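Single-nucleus RNA was sequenced with 10x Genomics 3′ chemistry, 1 library for each of 9 mice. The deposited matrices hold raw counts that the authors produced with Cell Ranger on mm10 (version 4.0.0 in the submitters' processing notes, 7.2.0 in the file headers); use of intronic reads and of strand was not stated, and the study's removal of free RNA and doublets is not in these files. UMIs were summed per mouse and class and tested with edgeR 4.0.16 (R 4.3.3; quasi-likelihood, TMM, minimum count 10, Benjamini-Hochberg, 9 mice in 1 fit), and shares with exact permutation tests (scipy 1.17.1). Scripts were tested on simulated data. Members and gene lists were chosen with earlier results of these data known. Named genes were, per class, the 8 largest rises and falls with a mean of 20 counts and 1 direction in 9 mice, and per condition up to 10 each with 20 counts and no overlap, plus the 5 of smallest p where fewer than 5 passed; list genes could also be named, and up to 5 genes of smallest adjusted p per difference in effect. Some genes of these lists are counted in them but are not reported here, not drawn and not in the marker sums. Alternatives were DESeq2 1.42.0, RLE scaling, no filter, each mouse left out, other gates and a replicate block. Lower limits were 2 UMIs of Lamp5 (with 2 of Adarb2) or Sst and 1 of Pvalb for the other gates, each without Vip.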

Additional observations from a re-analysis of the deposited data

Results flagged for a closer look

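The change with age differed between Vip nuclei and the pooled other interneurons in 7 genes, by an edgeR test of that difference, and in each the change in Vip was the lower one. Leaving out young replicate 1, 2 or 3 gave 0 such genes each time, and no upper limit on genes per nucleus gave 1. Trhde, which degrades thyrotropin-releasing hormone, was 289, 299 and 241 CPM in young and 297, 393 and 414 in aged AAV-EGFP Vip sums, and 266, 203 and 214 and 728, 829 and 675 CPM in the pool. The difference in log2 fold change was -1.34 (adjusted p = 0.0149; 0.46 in Vip, 1.78 in the pool). Cdh9, a cadherin of synapses, was 103, 74.2 and 102 CPM in young and 54.4, 107 and 35.9 in aged AAV-EGFP Vip sums, with -0.35 in Vip against 1.34 in the pool and a difference of -1.77 (edgeR adjusted p = 0.0191). Runx1t1, a transcriptional corepressor, was 278, 306 and 340.1 CPM in young and 225, 188 and 155 in aged AAV-EGFP Vip sums, with -0.65 in Vip against 0.45 in the pool and a difference of -1.13 (edgeR adjusted p = 0.0326). Synpr, a protein of synaptic vesicles, was 1795, 1314 and 1297 CPM in young and 1939, 1792 and 1473 in aged AAV-EGFP Vip sums, with 0.30 in Vip against 1.39 in the pool and a difference of -1.12 (edgeR adjusted p = 0.0326). Among the others were Iqgap2 (-1.71, adjusted p = 0.0337) and Elfn1 (-1.23, adjusted p = 0.0446).

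The makeup of the pool moved with age, with Sst nuclei at 12.4% to 18.9% of its UMIs in young and 37.1% to 46.4% in aged AAV-EGFP mice. Mean levels in the Lamp5, Sst and Pvalb gates were 48.3, 1219.5 and 111 CPM for Trhde, 102, 1253 and 88.00 CPM for Synpr and 3.001, 188 and 11.2 CPM for Elfn1. Against the Lamp5, Sst and Pvalb gates alone, a comparison chosen after seeing the data, the difference was 1.33, -0.26 and -0.78 for Trhde and 1.52, -0.25 and 0.66 for Synpr. It was -0.51, -1.54 and -1.20 for Cdh9, -1.03, -0.55 and -0.78 for Runx1t1 and -0.89, -0.03 and -0.03 for Elfn1, and none of these differences passed. For Iqgap2 it was -1.51, -1.88 and -1.78, and the last passed (edgeR adjusted p = 0.0328).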

How the results depend on the processing

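Genes called with age (3) numbered 0 with no upper limit on genes, 1 with doublets removed, 11 with at least 2 UMIs of Vip, 17 without nuclei with striatal markers, 90 with no filter on low counts, 6 with the replicate block, 7 with only the 2 groups compared and 10 by DESeq2. With AAV-B3GNT3 (14) they numbered 0, 4, 22, 134, 9 and 22 with no upper limit, doublets removed, no striatal markers, no filter, only the 2 groups and DESeq2, and for aged AAV-B3GNT3 against young (11) 0, 7, 118, 53 and 18 with no upper limit, no striatal markers, no filter, only the 2 groups and DESeq2. With doublets removed 10 genes passed for aged AAV-B3GNT3 against young, 6 of them among the 11. Of the genes named as called, DESeq2 passed 3 of 3 with age, 3 of 14 with AAV-B3GNT3 and 5 of 11 for aged AAV-B3GNT3 against young, and gave no adjusted p for 0, 9 and 6 of them. For the difference of ageing effects (7) they were 1 with no upper limit, 4 with at least 2 UMIs of Vip, and 2, 1 and 2 against Lamp5, Sst and Pvalb alone, and for that of treatment effects (0) 1 each without striatal markers and against Lamp5 or Sst alone. Against Lamp5 alone the ageing difference turned to 1.33 for Trhde and 1.52 for Synpr, and against Pvalb alone to 0.66 for Synpr; the cause was not tested. The alternatives on striatal markers and single gates were chosen after seeing the data. Leaving out 1 mouse at a time gave 0 to 15 calls for ageing, 0 to 44 for treatment, 0 to 33 for aged AAV-B3GNT3 against young, 0 to 21 and 0 to 2 for the differences of effects, 1446 to 1529, 1459 to 1651 and 2769 to 3027 against Lamp5, Sst and Pvalb, and p of 0.0214 to 0.454 and 0.0250 to 0.736 for the shares of kept nuclei and of the 4 gates. The condition genes named kept their direction in every alternative run. With the replicate block 19 genes passed for treatment, 13 of them among the 14 (AC154782.1 did not), and 15 for aged AAV-B3GNT3 against young, 9 of them among the 11 (Runx1t1 and Iqgap2 did not); numbers were shared without a stated pairing, and same-numbered mice correlated at -0.149 to 0.132, so the block stands only here. Member sums of 343969 to 961346 UMIs limit the tests to genes above the count filter.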
